A study of Homo sapiens with 2 samples.

Results

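The RNF and TRIM genes encode ring finger and tripartite motif proteins, most of which are ubiquitin ligases. They were taken as all gene symbols that begin with RNF or TRIM followed by a digit, without hyphenated readthrough symbols, after the deposited transcript values had been summed per gene. This gave 113 of the 12918 genes in the table, 70 RNF and 43 TRIM genes. A further 48 RNF and TRIM symbols with annotated coding transcripts are not analysed here.

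Ubiquitin is passed from an activating enzyme (E1) to a conjugating enzyme (E2) and then, with the help of a ligase (E3), to a substrate. A RING finger is a zinc-binding fold that holds a loaded E2 close to the substrate, and the chain that is built can mark a protein for the proteasome or change what it binds. RNF proteins share little beyond the RING, while TRIM proteins carry a RING, B-boxes and a coiled coil followed by a variable end that often reads the substrate; several TRIM proteins are known as antiviral factors.

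The libraries came from MDA-MB-231, a widely used human cell line from a triple-negative breast tumour, grown in L15 medium with serum. One library was from cells transfected with a Smart Silencer against the long noncoding RNA THAP7-AS1, and 1 was from cells transfected with the control si-NC; both were taken at 48 h. The question was which messenger RNAs differ after the silencing. The deposited column headed si-v was taken as the silencer library by elimination, since the other is headed si-nc, so every direction given here rests on that reading and the library is called si-v. The level of THAP7-AS1, which would check the labels, was not analysed here.

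With 1 library per group there is no spread between cultures, no test was made, and every difference describes these libraries only. The values were read as FPKM, fragment counts scaled for transcript length and library size. Low values fell on a step that puts the depth on the listed transcripts at about 8360000 fragments in si-v and 7830000 in the control. The line's mesenchymal markers were high in si-v and in the control (VIM at 373 and 344 FPKM, AXL at 204 and 259). The luminal markers were low, with ESR1 listed at 0 in both and CDH1 at 0.122 and 0.0845. GATA3, at 2.18 and 2.65 FPKM, and ERBB3, at 1.03 and 1.61, were low but present, and PGR was not listed. Genes of the mitochondrial genome took 6.95% of the summed FPKM in si-v and 12% in the control. Some results below are also given scaled without these genes, but their part as a cause was not tested.

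Some of the differences below rest on genes and transcripts that share letters, so the stretches concerned are shown first. They were read from GENCODE release 29 on GRCh38, 5′ to 3′ on the coding strand, whereas the deposited values were made on hg19. TRIM16L and TRIM16 both lie on chromosome 17, on the plus and the minus strand. The whole coding sequence of TRIM16L, 1047 bases, aligned without a gap to bases 649 to 1695 of the longest TRIM16 coding sequence, with 14 differences (98.7% identity) and a longest identical run of 220 bases. Bases 808 to 927 of the TRIM16L coding sequence hold 5 of the 14 differences, a 120-base window picked for holding many of them, and are shown with the differing bases in capitals:
TRIM16L: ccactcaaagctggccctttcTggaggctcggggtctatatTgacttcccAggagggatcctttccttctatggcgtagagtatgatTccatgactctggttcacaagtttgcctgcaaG
TRIM16: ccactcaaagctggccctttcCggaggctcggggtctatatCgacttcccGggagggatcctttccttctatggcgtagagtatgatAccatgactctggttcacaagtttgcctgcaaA
Counted from the first base of the TRIM16L coding sequence and written TRIM16 base first, these are C829T, C849T, G858A, A895T and A927G.

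TRIM6 and TRIM34 are neighbours on the plus strand of chromosome 11, and the annotation holds a readthrough gene, TRIM6-TRIM34, that joins them. All 1467 coding bases of TRIM34 are also coding bases of the readthrough transcript. Its splice junction is shown with the bases that follow it in capitals:
TRIM6-TRIM34: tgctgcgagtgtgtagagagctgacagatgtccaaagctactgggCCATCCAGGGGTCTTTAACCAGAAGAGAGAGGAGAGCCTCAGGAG
On the minus strand of chromosome 1, 2 of the TRIM33 transcripts differ by 51 coding bases, and 2 of the TRIM39 transcripts, on the plus strand of chromosome 6, by 90. The stretches are shown in capitals with 15 flanking bases on each side in lower case, from ENST00000358465 and ENST00000396547, since the transcripts with and without them were at unlike levels in the libraries:
TRIM33: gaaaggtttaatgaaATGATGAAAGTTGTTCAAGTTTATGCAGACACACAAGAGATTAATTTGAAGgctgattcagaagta
TRIM39: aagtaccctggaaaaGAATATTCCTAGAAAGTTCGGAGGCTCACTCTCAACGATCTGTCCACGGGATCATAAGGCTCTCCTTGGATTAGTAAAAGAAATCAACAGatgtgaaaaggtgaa

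Of the 113 genes, 99 reached 1 FPKM in at least 1 library, 60 RNF and 39 TRIM genes. As a group they stood at nearly the same level in the libraries. The summed FPKM of the 99 was 1111 in si-v and 1074 in the control, and all 113 took 0.374% and 0.358% of the FPKM of all genes. No member was an abundant message, since the highest value was 59.7 FPKM in si-v and 49.1 in the control. In both libraries 13 members reached 20 FPKM, and 35 of the 99 stayed under 5 FPKM in both.

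The difference between libraries is given as log2((si-v + 1)/(control + 1)) of the FPKM, on which 1 stands for a 2-fold difference; the added 1 understates the difference of low genes. On this scale 3 members were 2-fold or more higher in si-v, against 2.37% of all 11046 genes reaching 1 FPKM, and 1 was 2-fold or more lower, against 2.49%. At 1.5-fold, 11 members were higher, against 9.82% of all genes, and 9 were lower, against 8.91%. The members' shares lay near those of all genes. Among the members at 2-fold, TRIM16L, RNF103 and TRIM34 reached 1 FPKM only in the library where they were higher. The median log2 ratio was 0.01 over the 99 members and 0.00 over all genes, with 0.01 for RNF and 0.05 for TRIM genes. The SD of the log2 ratio over the members was 0.50, against 0.49 over all genes.

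**Figure D1:**
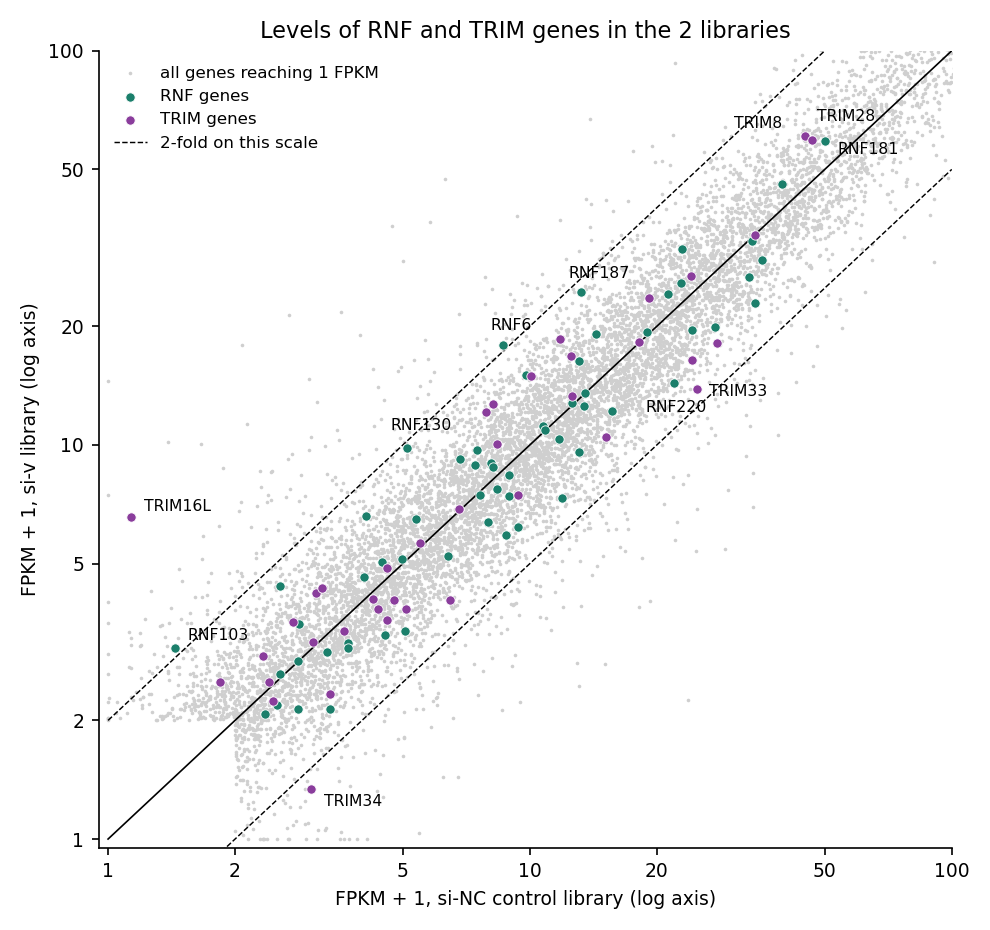
Level of each gene in the si-v library (vertical axis) against the si-NC control library (horizontal axis), FPKM + 1 on log axes, with RNF genes green, TRIM genes purple and all genes reaching 1 FPKM grey (axes end at 100). The dashed lines mark a 2-fold difference on this scale; TRIM16L, RNF103 and RNF6 lie above the upper line and TRIM34 below the lower one.

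TRIM16L had the largest difference of all members. Like TRIM16, it encodes a protein without a RING finger, and the TRIM16L protein is shortened at the start. It stood at 5.55 FPKM in si-v and 0.135 FPKM in the control, a log2 ratio of 2.53. These values correspond to about 131 fragments in si-v and 3 in the control, and the 95% counting interval of the fragment log2 ratio ran from 3.75 to 7.62. Its partner TRIM16, known for binding damaged lysosomes, stood at 25.9 FPKM in si-v and 23.0 in the control. Of the 50-base windows of the listed TRIM16L transcript, 56.2% also occur in TRIM16 transcripts, and the coding sequences share an identical run of 220 bases, so reads from such stretches cannot be told apart. The fragment numbers and the interval depend on how such reads were divided. Summed, the pair stood at 31.4 FPKM in si-v and 23.2 in the control, a log2 ratio of 0.42.

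RNF6, a RING ligase known for modifying the androgen receptor, stood at 16.9 FPKM in si-v and 7.62 in the control, a log2 ratio of 1.06. About 735 fragments in si-v and 287 in the control lay behind it, with a counting interval of the fragment log2 ratio from 1.04 to 1.44. When the libraries were scaled without the mitochondrial genome the log2 ratio was 0.99, just under 2-fold. RNF103, a membrane ligase of the endoplasmic reticulum, was low, at 2.05 FPKM in si-v and 0.437 in the control (log2 ratio 1.09, about 85 and 17 fragments). The 95% counting interval of its fragment log2 ratio ran from 1.44 to 3.04. Its readthrough gene RNF103-CHMP3 stood at 0.398 FPKM in si-v and was listed at 0 in the control. The counting intervals, above and below, cover counting error only. They leave out how reads were divided among transcripts or near-identical genes and how cultures vary. TRIM16L, RNF6, RNF103 and TRIM34 were picked for the same values, so an interval away from 0 gives no support for their differences.

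TRIM34, a paralog of the retroviral restriction factor TRIM5, was the member that was 2-fold lower. It stood at 0.339 FPKM in si-v and 2.03 in the control, a log2 ratio of -1.18 on about 9 and 53 fragments (counting interval of the fragment log2 ratio -3.89 to -1.65). The readthrough gene TRIM6-TRIM34 was placed the other way, at 2.53 FPKM in si-v and listed at 0 in the control. Of the 50-base windows of TRIM34, 86.7% also occur in the readthrough transcript, whose junction is printed above. TRIM6 stood at 9.45 FPKM in si-v and 14.2 in the control. The sum of the 3 genes was 12.3 FPKM in si-v and 16.2 in the control, a log2 ratio of -0.37.

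TRIM5, TRIM6, TRIM34 and TRIM22 follow each other on chromosome 11. TRIM5, which blocks incoming retroviral capsids, stood at 2.60 FPKM in si-v and 3.59 in the control. TRIM22, an interferon-induced gene, was at 0.325 FPKM in si-v and 0.583 in the control and did not reach the 1 FPKM limit. On about 12 fragments in si-v and 7 in the control its direction was the opposite of that on FPKM, and the counting interval of the fragment log2 ratio, -0.81 to 2.24, took in 0.

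The members nearest the 2-fold limit from outside were RNF130 and RNF187 on the upper side and TRIM33 and RNF138 on the lower side. RNF130, a membrane ligase with a protease-associated domain, stood at 8.80 FPKM in si-v and 4.12 in the control (log2 ratio 0.94). RNF187, known as a coactivator of the AP-1 subunit JUN, stood at 23.4 FPKM in si-v and 12.2 in the control (0.88). TRIM33, which acts on SMAD4 in TGF-beta signalling, stood at 12.8 FPKM in si-v and 23.9 in the control (-0.85). RNF138, which promotes the trimming of broken DNA ends, stood at 6.31 FPKM in si-v and 10.9 in the control (-0.70). Just inside the upper limit lay RNF6 and RNF103.

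Next on the upper side came RNF13, another protease-associated membrane ligase, at 3.38 FPKM in si-v and 1.56 in the control, and RNF25, a partner of the NF-kB subunit p65, at 5.58 and 3.08. TRIM65, which modifies the RNA sensor MDA5, stood at 17.6 FPKM in si-v and 10.8 in the control. TRIM11 stood at 11.7 and 7.16 FPKM and RNF126, which works with BAG6 on mislocalised proteins, at 14.1 and 8.76. These 5 genes had log2 ratios from 0.63 to 0.78. On the lower side, TRIM36 stood at 3.05 FPKM in si-v and 5.46 in the control (its most abundant transcript turned to a log2 ratio of 0.30), RNF180 at 1.14 and 2.35, and RNF220, a stabiliser of beta-catenin, at 13.3 and 21.0. TRIM36 had about 154 fragments in si-v and 174 in the control, with a counting interval of the fragment log2 ratio from -0.62 to 0.02. TRIM14, an adaptor of the mitochondrial antiviral protein MAVS, stood at 17.2 FPKM in si-v and 26.8 in the control. RNF114 was at 5.17 and 8.36, RNF141 at 2.37 and 4.05, and RNF11, a small partner of the A20 complex, at 21.9 and 33.2 FPKM. The log2 ratios of these 7 genes ran from -0.67 to -0.58.

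**Figure D2:**
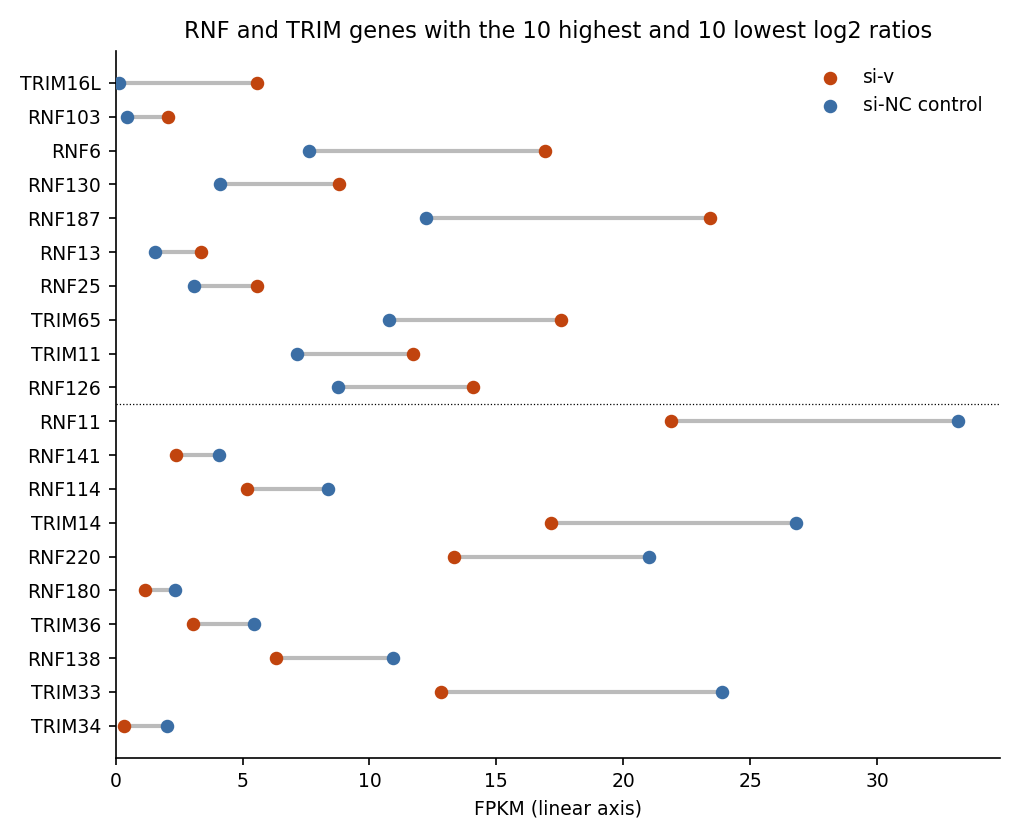
FPKM of the members with the 10 highest (above the dotted line) and 10 lowest log2 ratios; red points are the si-v library, blue points the si-NC control, 1 library each. TRIM16L stood at 5.55 FPKM in si-v and 0.135 in the control, and the largest absolute gaps among the lower genes are those of RNF11 and TRIM33.

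The 8 members with the highest mean level had log2 ratios from -0.31 to 0.44. TRIM8, an activator of NF-kB signalling, stood at 59.7 FPKM in si-v and 43.9 in the control (log2 ratio 0.44). TRIM28, the corepressor that KRAB zinc finger proteins recruit to chromatin, stood at 58.4 and 45.7 FPKM (0.35). RNF181 stood at 58.0 FPKM in si-v and 49.1 in the control, and RNF26, which anchors endosomes near the nucleus from the endoplasmic reticulum, at 44.8 and 38.7. TRIM37, a ligase of centrioles and peroxisomes that is amplified in some breast cancers, was level at 33.0 and 33.2 FPKM. RNF167, a ligase of endosomes and lysosomes, was at 32.0 and 32.6. The log2 ratios of TRIM37 (-0.01) and RNF167 (-0.03) changed sign under other processing. RNF149 stood at 28.5 FPKM in si-v and 34.4 in the control, and RNF10, which marks ribosomal proteins of the small subunit, at 25.6 and 32.0. RNF10 was near level on fragments, at about 986 in si-v and 974 in the control. The counting interval of its fragment log2 ratio was -0.23 to 0.02, and its most abundant transcript had a log2 ratio of -0.08.

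Ligases of chromatin and DNA damage had a median log2 ratio of -0.27 over 9 genes, with 3 above 0, against 5568 of all 11046 genes. None was at 2-fold, against 2.37% of all genes higher and 2.49% lower. The median ran from -0.32 to -0.00073 over the alternative settings, nearest 0 when the most abundant transcript of each gene was used. The pair that places ubiquitin on histone H2B was higher in si-v: RNF20 stood at 30.3 FPKM in si-v and 21.9 in the control, and RNF40 at 24.7 and 21.9. The Polycomb ligase RNF2, which marks histone H2A, stood at 8.61 FPKM in si-v and 12.1 in the control. RNF8 and RNF168, which act in turn at DNA double-strand breaks, stood at 11.6 and 7.99 FPKM in si-v and at 12.4 and 7.10 in the control. RNF169, which binds the same marks, was at 6.43 and 7.93. RNF4 and RNF111, ligases that read SUMO chains, stood at 18.9 and 4.23 FPKM in si-v and 26.4 and 5.38 in the control.

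In the endoplasmic reticulum list 8 of 10 genes were listed, all past the filter, with a median of 0.10. Of these 1 was 2-fold higher (RNF103), against 2.37% of all genes, and none was 2-fold lower, against 2.49%. The sign of that median turned, to -0.16, on the most abundant transcripts. RNF5, a ligase of the degradation pathway whose letters are shared with the pseudogene RNF5P1 over 18.3% of its windows, stood at 18.5 FPKM in si-v and 23.2 in the control. RNF121 stood at 8.23 and 5.83, and RNF145, which acts on the sterol enzyme HMG-CoA reductase, at 9.90 and 9.89. Among membrane ligases with a protease-associated domain, 5 of the 10 on the list passed the filter. RNF13 and RNF130 were 1.5-fold or more higher, against 9.82% of all genes, and the others were within 1.5-fold. RNF43, the Wnt receptor ligase of that class, was at 0 FPKM in si-v and 0.0734 in the control, too low to compare.

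RING-between-RING ligases form a thioester with ubiquitin before handing it on. The 7 that passed the filter were all within 1.5-fold, as were 81.3% of all genes. Their log2 ratios ran from -0.18 (RNF217, 1.08 FPKM in si-v and 1.36 in the control) to 0.27. RNF217 turned to 0.19 when the trend with GC content and length was removed. The upper end was RNF31, the catalytic subunit of the linear chain complex LUBAC, at 5.47 FPKM in si-v and 4.38 in the control. Its partners RBCK1 and SHARPIN stood at 26.9 and 26.4 FPKM in si-v and at 17.2 and 24.4 in the control. Ligases of receptor, Wnt and NF-kB signalling had a median of -0.32 over 7 genes, from -0.38 to -0.20 over the alternative settings. RNF220 and RNF114 were 1.5-fold or more lower, against 8.91% of all genes, and RNF25 1.5-fold or more higher, against 9.82%. RNF146, which removes axin, was at 7.88 FPKM in si-v and 6.39 in the control, and RNF41, a ligase of the receptor ERBB3, at 5.36 and 6.94.

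Of 14 genes of innate immunity 13 passed the filter, with a median of -0.20. Above 0 were 5, against 5568 of all 11046 genes. At 2-fold lower was 1 (TRIM34), against 2.49% of all genes, and none was 2-fold higher, against 2.37%. The median ran from -0.33 to -0.078 over the alternative settings. TRIM25 and RNF135, which act on the RNA sensor RIG-I, were near level, at 12.3 and 6.71 FPKM in si-v and 11.6 and 7.36 in the control. TRIM21, the cytosolic antibody receptor, had the highest ratio of the list (0.57), at 13.9 FPKM in si-v and 9.07 in the control. TRIM56, which works in STING signalling, stood at 22.6 FPKM in si-v and 18.2 in the control. TRIM14 and RNF114 were 1.5-fold or more lower, as was TRIM34, against 8.91% of all genes.

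TRIM classes were small. Of the co-regulators with a PHD finger and a bromodomain, TRIM33 and TRIM24, a reader of modified histone H3, were lower (TRIM24 at 15.4 FPKM in si-v and 23.2 in the control), TRIM28 was higher and TRIM66 stood at 1.501 and 1.404. The 3 listed NHL-repeat genes lay between -0.19 (TRIM3, 2.83 FPKM in si-v and 3.38 in the control) and 0.05 (TRIM32, 2.16 and 2.06, which turned to -0.19 on fragments per gene). TRIM13 and TRIM59, which carry a transmembrane segment, stood at 9.06 and 5.86 FPKM in si-v and 7.35 and 5.80 in the control; on fragments per gene their log2 ratios turned to -0.07 and -0.37. TRIM63, a muscle RING finger gene, was low at 1.24 and 1.47 FPKM, and TRIM36 was the 1 COS class member listed. TRIM44, which lacks a RING, was level at 17.2 and 17.1 FPKM.

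**Figure D3:**
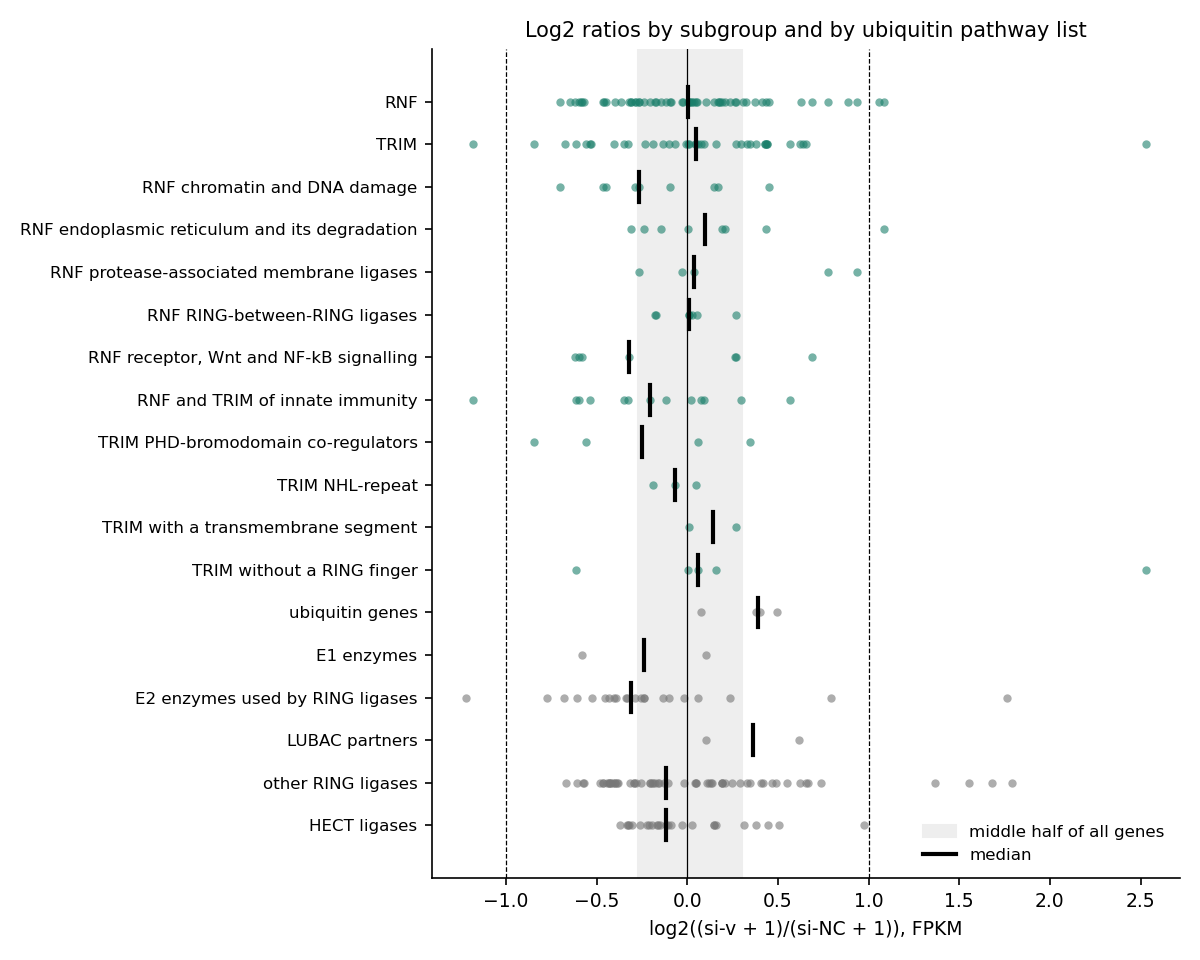
Log2((si-v + 1)/(si-NC + 1)) of the FPKM of each gene past the filter, by family, by subgroup (green) and by other lists of the ubiquitin pathway (grey); black bars are medians, the shaded band spans the middle 50% of all genes and dashed lines mark 2-fold. The lists drawn are those with at least 2 genes, and their medians lie between -0.32 (RNF of receptor, Wnt and NF-kB signalling) and 0.39 (ubiquitin genes). Several of these medians move or change sign under other processing.

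The other parts of the pathway gave a setting for these values. The 4 ubiquitin genes had a median log2 ratio of 0.39 (0.25 to 0.39 over the alternative settings), from UBB at 164 FPKM in si-v and 155 in the control to RPS27A at 296 and 210. The activating enzyme UBA1 stood at 122 FPKM in si-v and 113 in the control, and UBA6 at 13.9 and 21.3. The E2 enzymes that work with RING ligases had a median of -0.31 over 22 genes, with 4 above 0, against 5568 of all 11046 genes. That median was -0.22 with a pseudocount of 5 and -0.37 when scaled without the mitochondrial genome. Of the 22, 1 was 2-fold higher and 1 was 2-fold lower, against 2.37% and 2.49% of all genes. UBE2V1, the inactive partner in chains linked through lysine 63, stood at 46.3 FPKM in si-v and 109 in the control (-1.22), and UBE2G2, an E2 of the endoplasmic reticulum, at 25.6 and 6.83 (1.77). Of 60 other RING ligases past the filter 4 were 2-fold higher (6.67%, against 2.37% of all genes) and none was 2-fold lower (against 2.49%). Their median was -0.12, but 0.049 at the filter of 5 FPKM and 0.027 with the trend of GC content and length removed. The 4 were MIB2 at 6.15 FPKM in si-v and 1.07 in the control, TRAF5 at 13.0 and 3.36, MKRN1 at 39.9 and 12.9 and TRAF2 at 34.7 and 12.8, and the lowest was NEURL1B at 2.69 and 4.86. The 25 HECT ligases, which use another catalytic domain, had a median of -0.12 (-0.017 with the same trend removed). They ran from UBE3B at 9.27 FPKM in si-v and 12.3 in the control to UBE3A at 23.9 and 11.7. None reached 2-fold, against 2.37% of all genes higher and 2.49% lower. No difference between these lists was tested.

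Values per transcript gave a further view. The 113 genes had 310 listed transcripts, of which 190 were past 1 FPKM in one or both libraries. Of these 17 were 2-fold or more higher in si-v, against 11.7% of all 24899 such transcripts, and 22 were 2-fold or more lower, against 10.4%. In 7 genes at least 1 transcript was higher and another lower by 2-fold: RNF4, RNF6, RNF146, RNF220, TRIM26, TRIM39 and TRIM41. That is 9.46% of the 74 members past the filter with several listed transcripts, against 12.0% of the 8454 such genes in the table. Reads of transcripts that overlap are divided by estimate, and the size of that error cannot be read from 1 library per group.

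RNF6 showed the widest exchange. ENST00000381588 stood at 14.0 FPKM in si-v and 1.42 in the control, while ENST00000381570 stood at 0.0242 and 5.01. The coding sequences of the 3 listed RNF6 transcripts, 2058 bases each, are identical, so these transcripts differ outside the reading frame. RNF146 was alike: ENST00000610153 was at 6.77 FPKM in si-v and listed at 0 in the control, whereas ENST00000608991 was at 0.0338 and 2.96. Their reading frames of 1080 and 1077 bases differ by 3 bases.

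In RNF220 the transcript ENST00000355387, with a reading frame of 1701 bases, stood at 0.681 FPKM in si-v and 14.9 in the control. The shorter ENST00000335497 and ENST00000440132 stood at 3.86 and 7.27 FPKM in si-v and 0.995 and 4.34 in the control. As the transcript that was lower is the longest of the 3, the gene's log2 ratio was -1.47 on fragments per gene, against -0.62 on summed FPKM. In RNF4, ENST00000314289 stood at 10.7 FPKM in si-v and 3.36 in the control, and ENST00000511600, with an identical reading frame of 573 bases, at 3.68 and 9.51. ENST00000511859, which lacks 231 of these coding bases, stood at 2.10 and 9.74.

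TRIM33 differed by transcript as well. ENST00000369543, which lacks the 51 bases printed above, stood at 2.70 FPKM in si-v and 11.9 in the control. ENST00000358465, which holds them, stood at 9.42 and 7.99. Since this second transcript is by far the longer, the gene had a log2 ratio of -0.85 on summed FPKM but -0.38 when fragments were counted, and the most abundant transcript alone had 0.21. In TRIM39, which stabilises the apoptosis factor MOAP1, ENST00000396547 with the 90 printed bases was listed at 0 in si-v and at 2.94 FPKM in the control. ENST00000396551, without them, stood at 3.97 FPKM in si-v and 0.390 in the control, and ENST00000376659, with that same reading frame, at 5.67 and 2.68. The readthrough gene TRIM39-RPP21 was at 1.95 FPKM in si-v and listed at 0 in the control.

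TRIM26 had ENST00000453195 at 1.01 FPKM in si-v and 6.07 in the control, and ENST00000437089, with an identical reading frame of 1620 bases, at 1.68 in si-v and listed at 0 in the control. TRIM41 had ENST00000315073 at 1.97 FPKM in si-v and 0.0583 in the control and ENST00000351937 at 0.406 and 2.57. RNF130 had ENST00000261947 at 5.35 FPKM in si-v and listed at 0 in the control, while ENST00000521389 stood at 3.10 and 3.88; the log2 ratio of its most abundant transcript was -0.25. RNF187 differed in its long transcript ENST00000305943, at 19.2 FPKM in si-v and 8.41 in the control.

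**Figure D4:**
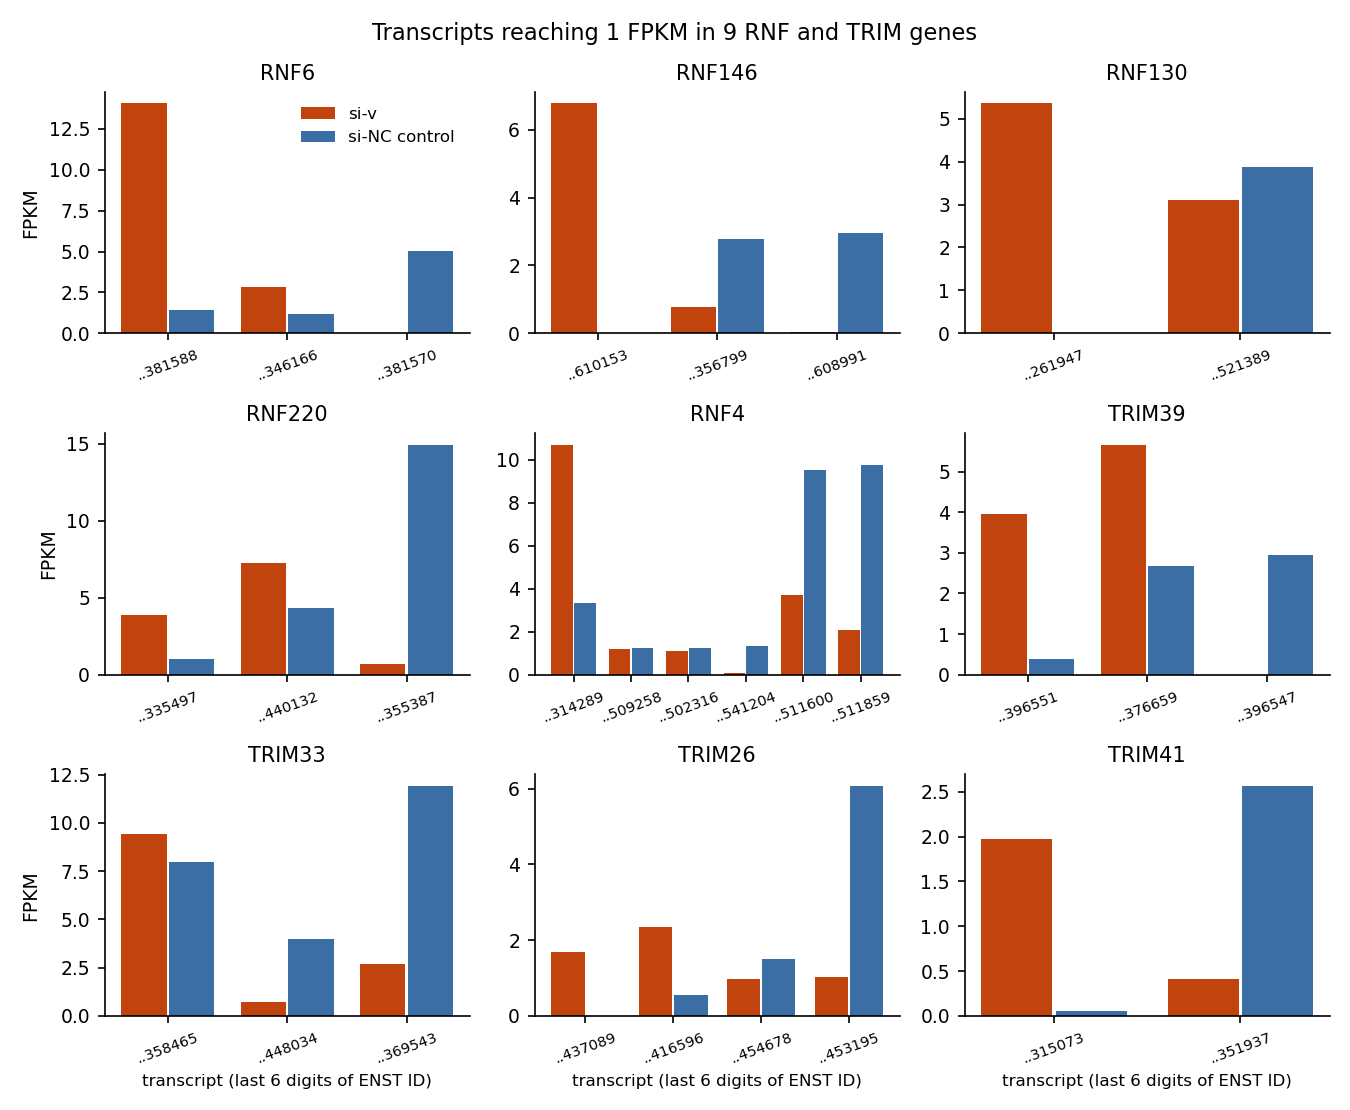
FPKM of each transcript that reached 1 FPKM in at least 1 library, for 9 members, with the si-v library in red left of the si-NC control in blue, 1 library each; each panel has its own linear axis from 0. In RNF6 the bars of ENST00000381588 (14.0 and 1.42 FPKM) and ENST00000381570 (0.0242 and 5.01) are placed in opposite order.

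Sequence composition moved with the differences. Over the 99 members the log2 ratio and the GC content of the transcripts had a Spearman correlation of 0.34, and over all 11046 genes of 0.34, where the points share the same 2 libraries. The members 1.5-fold or more higher in si-v had a median GC content of 54.6%, and those 1.5-fold or more lower 43.6%, against 49.9% for all 99. The correlation with transcript length was -0.17 for the members and -0.18 for all genes. The part of composition in the single differences was not tested. With the trend of GC content and length removed, the log2 ratio of RNF187 was 0.67, against 0.88 before, and that of TRIM28 0.15, against 0.35. The ratio of RNF6 was then 1.22 and that of TRIM34 was -1.11.

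**Figure D5:**
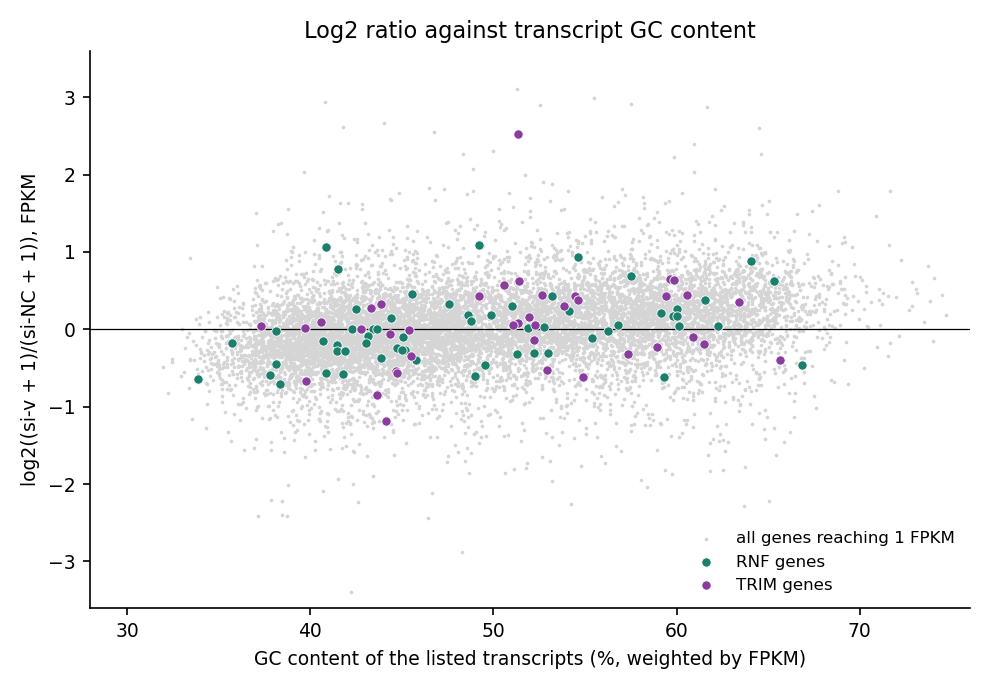
Log2((si-v + 1)/(si-NC + 1)) of the FPKM (vertical axis) against the GC content of the listed transcripts, weighted by FPKM (horizontal axis, percent), with RNF genes green, TRIM genes purple and all genes grey. Members of higher GC content tend to lie higher (Spearman correlation 0.34 over 99 members), as all genes do.

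Several other members share letters with a neighbour or a copy. Of the 99, 43 had under 1% of their 50-base windows in a transcript of another gene on either strand, 25 had over 10%, and 5 had over 50%. Those 5 were TRIM74, TRIM34, TRIM16, TRIM16L and TRIM52. TRIM74 shares 92.3% of its windows with TRIM73 and stood at 1.499 FPKM in si-v and 0.845 in the control. No source used here gives the strand setting. If the libraries did not keep the strand, reads from overlaps with antisense neighbours, such as RNF219 with RNF219-AS1, cannot be told apart.

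The 14 members that stayed under 1 FPKM in both libraries ranged from 0 to 0.541 FPKM in si-v and from 0 to 0.762 in the control. RNF212 and RNF39 were listed at 0 in both. They included TRIM29, known from basal epithelium, at 0.213 FPKM in si-v and 0.115 in the control, and TRIM54 at 0.378 and 0.762. Of the 99 that passed, 3 did so in si-v only (TRIM16L, RNF103 and TRIM74) and 1 in the control only (TRIM34). In RNA from a whole culture, a change in every cell and a change in some cells cannot be told apart.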

How the data were processed

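The authors deposited 1 table of transcript values with no unit in its header; the deposited values were read as FPKM, estimated per transcript by the authors before deposit, since per the submitters' processing notes StringTie was used. Cutadapt, HISAT2 2.0.5 and StringTie on hg19 are named in the submitters' processing notes; no source used here gives settings, annotation release or strand. Of 39605 transcript IDs, 99.5% matched GENCODE release 29 without version, which gave symbols, lengths and GC content; 179 unmatched ones were left out. FPKM was summed per gene with Python 3.11.15, pandas 2.3.3 and SciPy 1.17.1. Genes reaching 1 FPKM in a library were kept, and the pseudocount was 1. The worth of 1 fragment was read from low values times length in genes with 1 listed transcript; these fragment numbers are approximate, and Clopper-Pearson intervals at 95% on them cover counting error only. The steps were tested on simulated data in which only genes at 5 FPKM or more in the control were changed. Reads were not divided there among transcripts or near-identical genes. Changes in lower genes and the placing of shared reads were therefore not covered. The members and lists were chosen with earlier results of these data known. Named were the 10 highest and 10 lowest ratios, the 8 highest levels, each member at 2-fold, and the extremes of each list; other genes were named after their values were seen. The lists overlap in places. The silenced THAP7-AS1 itself was not analysed here.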

Additional observations from a re-analysis of the deposited data

How the results depend on the processing

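The 3 members that were 2-fold higher, the 1 that was lower and the median of 0.01 were recomputed under 11 alternatives, 1 of them chosen after seeing the data. With a pseudocount of 0.1 there were 5 higher and 1 lower of 99, against 4.4% and 4.28% of all genes. With a pseudocount of 5 there were 1 higher and 0 lower, against 0.652% and 0.607%. With a filter of 5 FPKM 2 were higher and 0 lower of 64, against 2.33% and 2.48% of all genes. At 1.5-fold there were 11 higher and 9 lower. Read from the most abundant transcript only, 6 were higher and 6 lower of 97, against 6.33% and 6.55% of all genes. On fragments per gene 4 were higher and 2 lower of 99, against 2.34% and 2.35%. Scaled without the mitochondrial genome, the median of the members was -0.041 and that of all genes -0.053. This left 2 members higher and 1 lower, against 2% and 2.86% of all genes. The members' median was 0.063 once the trend with GC content and length was taken out, against 0.016 over all genes. With overlapping or near-identical partner genes summed (added later), 2 were higher and 0 lower, against 2.36% and 2.48% of all genes. The other alternatives gave 3 higher and 1 lower, against 2.03% to 2.35% and 2.13% to 2.5% of all genes. The causes were not tested, apart from the larger pseudocount and the higher filter, which by construction shrink or drop low genes. Of the 38 named members, 9 changed sign under at least 1 alternative, and none of the 4 at 2-fold did. Much of that outcome was fixed, since another pseudocount or filter cannot turn the sign of any member. Centring on the median and scaling without the mitochondrial genome also shifted the values too little to turn a member at 2-fold. TRIM16L and RNF103 have 1 listed transcript each, so using the most abundant transcript leaves them unchanged, and counting fragments per gene only rescales them. Several list medians also moved or changed sign, and only some of these moves are given beside them. On the most abundant transcripts the PHD-bromodomain median went from -0.25 to 0.21, and at the filter of 5 FPKM to -0.56. On those transcripts the protease-associated median went from 0.04 to -0.22 and the NHL-repeat median from -0.07 to -0.63. No paired analysis was possible because each group has 1 library. Depth limits the low members: RNF103 in the control rests on about 17 fragments, TRIM34 in si-v on about 9 and TRIM16L in the control on about 3.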
